A study of Mus musculus with 20 samples.

Results

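Fatty acids are the main fuel of the adult heart, and 35 genes of their uptake and breakdown are described here across 20 mouse hearts. The genes were chosen by name and role: 5 of uptake and activation, 5 of the carnitine shuttle, 2 that set the level of malonyl-CoA, 8 acyl-CoA dehydrogenases and electron carriers, 5 of hydration, oxidation and thiolysis, 4 isomerases and a reductase, 3 of peroxisomes, and 3 of ketone use. All 35 were found among the 23284 genes of each table. All 35 also passed the filter of a mean of at least 0.5 FPKM (a count of fragments divided by transcript length and by the size of the library), which left 12589 genes. Hearts came from C57BL/6 mice in 10 groups of 2. Control mice carried floxed alleles of Wnt5a, which encodes a secreted signalling protein. CKO mice, labelled Wnt5a floxed with Myh6-Cre/Esr 1, carried in addition a Cre recombinase joined to an oestrogen receptor part and driven by a heart muscle promoter, which acts on floxed DNA after tamoxifen. Both genotypes were sampled when tamoxifen ended and, after surgery, at 2 and at 4 weeks. Surgery was TAC (transverse aortic constriction, which narrows the aorta and loads the left ventricle with pressure) or a sham procedure. The labels give the controls no Cre transgene, so loss of Wnt5a and presence of the transgene cannot be told apart. Heart cells other than muscle keep the floxed alleles under this promoter. The labels give neither age nor sex. Each library is named as a separate heart, so p-values measure the spread between these hearts only.

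Long-chain fatty acids are released from lipoproteins, enter muscle cells by carrier proteins and are joined to coenzyme A. The acyl group is then moved onto carnitine by carnitine palmitoyltransferase at the outer mitochondrial membrane, the step that malonyl-CoA inhibits, and is carried inside and moved back to coenzyme A. Each turn of beta-oxidation then runs through dehydrogenation, hydration, a second dehydrogenation and thiolysis, and yields acetyl-CoA. Auxiliary isomerases and a reductase prepare unsaturated chains. In the adult heart this pathway supplies most of the energy, and its genes are known targets of the receptors PPAR alpha and ERR alpha with the co-activator PGC-1 alpha. In pressure overload the heart is known to shift its fuel use away from fatty acids and towards glucose and ketones.

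Promoter sequences of RefSeq (build GRCm38.p6) were matched by symbol for 27 of the 35 genes, in 31 windows. Parts outside annotated exons are printed for the genes on which the results turn: the pair Hadha and Hadhb, which share 1 promoter, Ech1, which fell most after TAC in controls, Bdh1, which rose, and Acadvl and Echs1, in which AGGTCA lies close to the start. All run 5′ to 3′ on the strand of the gene. Capitals mark AGGTCA, the half-site that receptors such as PPAR alpha and ERR alpha read, or GGGCGG (the GC box), on either strand.
Hadhb and Hadha (chr5:30155163-30155247, plus strand of Hadhb): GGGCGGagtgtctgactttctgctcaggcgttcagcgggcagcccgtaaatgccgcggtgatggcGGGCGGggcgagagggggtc
Ech1 (chr7:28825088-28825216, plus strand): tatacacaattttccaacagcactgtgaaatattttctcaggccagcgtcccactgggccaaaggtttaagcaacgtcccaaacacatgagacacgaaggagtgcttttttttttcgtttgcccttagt
Bdh1 (chr16:31422047-31422279, plus strand): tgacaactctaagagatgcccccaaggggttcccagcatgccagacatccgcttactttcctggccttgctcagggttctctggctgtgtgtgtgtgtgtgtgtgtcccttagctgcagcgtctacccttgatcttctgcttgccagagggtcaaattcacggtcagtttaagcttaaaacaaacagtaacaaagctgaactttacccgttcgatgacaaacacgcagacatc
Acadvl (chr11:70015429-70015678, minus strand): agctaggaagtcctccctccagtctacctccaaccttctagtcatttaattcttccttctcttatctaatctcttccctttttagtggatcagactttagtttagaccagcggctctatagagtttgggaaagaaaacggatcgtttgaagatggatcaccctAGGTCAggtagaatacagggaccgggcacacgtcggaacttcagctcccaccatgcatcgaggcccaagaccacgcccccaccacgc
Echs1 (chr7:140116477-140116671, minus strand): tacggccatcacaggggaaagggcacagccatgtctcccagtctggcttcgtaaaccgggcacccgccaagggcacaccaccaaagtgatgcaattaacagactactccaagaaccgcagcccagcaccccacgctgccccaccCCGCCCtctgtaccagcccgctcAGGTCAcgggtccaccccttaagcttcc

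Hadha and Hadhb, the alpha and beta subunits of the mitochondrial trifunctional protein, lie head to head on chromosome 5, with start sites 86 bases apart. The stretch between them holds 2 GC boxes and no AGGTCA. The printed stretches of Ech1 and Bdh1 hold neither motif, that of Acadvl holds 1 AGGTCA, and that of Echs1 holds 1 AGGTCA and 1 GC box. The whole window of Ech1 does hold a GC box, in bases not printed here. In the 250 bases before the start, on both strands, AGGTCA was found in 5 of 31 windows of these genes (Cd36, Cpt1a, Acadvl, Acadm and Echs1), against 14.0% of all 32851 windows of the same length. The paired site of PPAR alpha and its partner RXR, AGGTCA repeated on 1 strand with 1 base between, was found in 0 of 31 windows and in 0.0335% of all, and TNAAGGTCA, the extended ERR site, which contains AGGTCA, in 0 of 31 and 1.14%. GGGCGG was found in 18 of 31 windows against 32.7% of all, CCAAT in 14 against 33.9%, and TATAAA in 1 (Acacb) against 12.4%. The median GC content was 58.8% in these windows and 52.4% in all. A missing match says only that these letters are not in this window.

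Wnt5a, the targeted gene, was at 2.55 to 4.11 FPKM in control sham, 1.58 to 2.06 in control TAC, 1.76 to 2.14 in CKO sham and 0.853 to 1.57 in CKO TAC hearts, and at 2.56 to 2.82 in control and 1.61 to 2.33 in CKO hearts when tamoxifen ended. The sham hearts of the genotypes did not overlap, and neither did their TAC hearts, where the nearest values were 1.57 (CKO) and 1.58 FPKM (control). In sham hearts limma called 0 of all genes lower in CKO than in control hearts, so Wnt5a did not pass there. The share of all genes separated in this way, 4 against 4 hearts, was not computed between genotypes. Esr1, part of which the transgene carries, was at most 0.465 FPKM in control hearts and at least 197 FPKM in CKO hearts. Relative depth, read from the lowest steps of the values, differed between hearts from 0.877 to 1.21, and the depth in fragments is unknown. Markers of heart muscle, 8 of 8 detected, summed at 2 weeks to 113912 and 114533 FPKM with sham against 85976 and 92814 with TAC in controls, and to 100895 and 118978 against 90688 and 78340.3 in CKO hearts, so that TAC hearts lay below sham in both genotypes. At 4 weeks the sums were 87585 and 104850.0 against 97859 and 106886 in controls, which overlap, and 101950.0 and 103163 against 114352 and 107847 in CKO hearts, where TAC hearts lay above sham. Of the 8, Tnni3 (8846 to 11754 FPKM with sham, 6066 to 8062 with TAC), Pln (3925 to 5119 and 2796 to 3351) and Ryr2 (126 to 158 and 86.1 to 119) were lower in all 4 control TAC hearts than in all 4 control sham hearts. Myh6, Tnnt2, Actc1, Myl2 and Mb overlapped between these hearts. The mean of Actc1 was higher with TAC (12828 FPKM with sham, 15821 with TAC). Fibroblast markers, 8 of 8 detected, summed at 2 weeks to 698 and 605 FPKM with sham against 1710.2 and 1642 with TAC in controls and 662 and 673 against 1067 and 1204 in CKO hearts, and at 4 weeks to 611 and 609.7 against 909 and 892 in controls and 716 and 686 against 632 and 559.8 in CKO hearts. With TAC the sums were higher in controls at both times, and in CKO hearts higher at 2 weeks and lower at 4 weeks. Dcn was the largest part of the sum in every heart. In CKO hearts at 4 weeks Dcn (518 and 453 FPKM with sham, 416 and 346 with TAC), Pdgfra and Tcf21 were below sham. Postn was above it (21.5 and 22.3 with sham, 44.6 and 23.5 with TAC), and Col1a1, Col1a2, Col3a1 and Lum overlapped. Endothelial markers, 6 of 6 detected, summed at 2 weeks to 337 and 288 FPKM with sham against 412 and 419 with TAC in controls and 364 and 298 against 486 and 544 in CKO hearts, and at 4 weeks to 368 and 270.4 against 368 and 399 in controls and 332 and 337 against 304 and 357 in CKO hearts. Macrophage markers, 7 of 7 detected, summed at 2 weeks to 375 and 246 FPKM with sham against 428 and 477 with TAC in controls and 341 and 234 against 448 and 519.9 in CKO hearts, and at 4 weeks to 183 and 224 against 317 and 325 in controls and 388 and 264 against 251 and 356 in CKO hearts. With TAC both sums were higher at 2 weeks in both genotypes, and in CKO hearts they overlapped sham at 4 weeks. Of single markers at 2 weeks, the endothelial Kdr and the macrophage Cd163 overlapped sham in both genotypes, and the macrophage Fcgr1 overlapped it in CKO hearts. Lyz2 was the largest part of the macrophage sum in every heart. In controls at 4 weeks Cd163 was lower with TAC (3.68 and 5.09 FPKM with sham, 1.79 and 1.79 with TAC) and Cd68 overlapped. The other macrophage markers were higher. The part of these cell types in the results was not tested, and in whole hearts fewer cells of a type and less RNA per cell cannot be told apart. White adipocyte markers, 6 in number, summed to at most 23.3 FPKM in any heart. Brown adipocyte markers, 6 in number, are mostly Cox7a1, a gene of heart muscle too, and summed to 6010.4 to 7295 FPKM in control sham and 2834 to 5116 in control TAC hearts, while the defining gene Ucp1 was at 0 in all 20. Myl7, which marks atrial muscle, was 10 FPKM or more in 5 hearts: control hearts 11 (TAC, 2 weeks) and 16 (sham, 2 weeks), and CKO hearts 14 (sham, 2 weeks), 21 and 24 (both end of tamoxifen), with 72.6, 32.2, 372, 323 and 50.6 FPKM. Some results are given without these hearts. Without them some calls were also lost for TAC in controls over both times and at 4 weeks. The same held for TAC in CKO hearts over both times and at 2 weeks.

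The genes took 3.06% and 3.17% of the summed FPKM in control sham hearts at 2 weeks and 3.07% and 3.12% at 4 weeks. After TAC the share in controls was 2.00% and 2.00% at 2 weeks and 2.43% and 2.53% at 4 weeks. In CKO hearts it was 2.89% and 3.11% with sham and 2.33% and 2.06% with TAC at 2 weeks, and 2.94% and 2.98% with sham and 2.79% and 2.71% with TAC at 4 weeks. All 4 TAC hearts of each genotype lay below all 4 sham hearts of that genotype, and the CKO TAC hearts at 4 weeks lay above the control TAC hearts at 4 weeks. At 2 weeks the sum of heart muscle markers was lower with TAC as well, and the sums of fibroblast, endothelial and macrophage markers were higher. The part of these cell types in the fall of the 35 genes was not tested. At the end of tamoxifen the share was 3.31% and 3.09% in controls and 3.07% and 2.91% in CKO hearts. Among control sham hearts Fabp3 (2673 ± 318 FPKM, SD, n = 4), Ech1 (2657 ± 270.1) and Lpl (2242 ± 167) had the highest levels per length, and Cpt1a (14.4 ± 1.27) and Ehhadh (7.40 ± 1.66) the lowest.

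**Figure D1:**
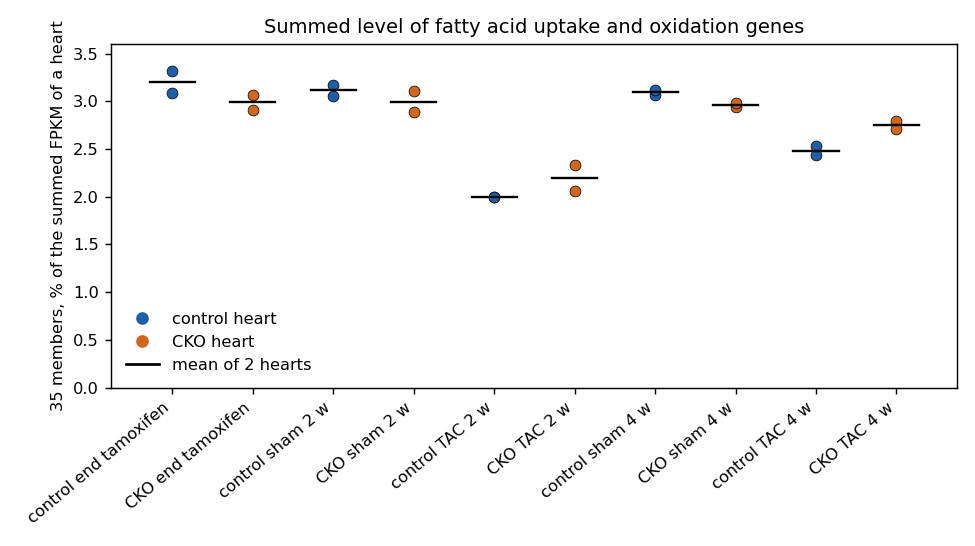
Share of the summed FPKM of each heart taken by the 35 genes, in percent, for the 10 groups; points are hearts and lines are means of 2 hearts. The share was 2.89% to 3.31% without TAC, 2.00% in control TAC hearts at 2 weeks, and closer to the sham level at 4 weeks.

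In control hearts TAC lowered most of these genes. Over both times, with equal weight to each, 31 of 35 were lower and 1 was higher (limma, Benjamini-Hochberg adjusted p under 0.05 over all genes tested), where 16.1% of all genes were called lower and 15.3% higher. The median log2 difference was -0.53 over the 35 genes and 0.00 over all genes tested. At 2 weeks 31 were lower and 1 higher (background 12.8% and 11%), with a median of -0.86. At 4 weeks 11 were lower and 1 higher (background 6.37% and 6.36%), with a median of -0.32. Every TAC heart lay below every sham heart for 24 of the 35 genes, against 12.2% of all genes, and above for 1, Bdh1, against 11.4%. Some calls over both times were lost without the hearts of high Myl7. Without the hearts of high Myl7, 17 genes were called at 2 weeks. A fit of only the compared groups called 3 genes at 4 weeks, a fit without sham heart 7 called 6, and quantile normalization called 21.

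In CKO hearts 24 of 35 were lower over both times and 0 higher (background 4.89% and 4.23%, 9.11% in either direction), with a median of -0.37. At 2 weeks 30 were lower and 0 higher (background 9.21% and 10%), with a median of -0.64. At 4 weeks limma called 0 of 35 (background 0.262%), with 2 at an unadjusted p under 0.05 (12.7% of all genes) and a median of -0.09. Every TAC heart lay below every sham heart for 6 genes, Slc27a1, Mlycd, Etfb, Acaa2, Ech1 and Ehhadh, against 4.05% of all genes, and above for 0, against 2.99%. These counts changed when single hearts were left out: over both times 11 were called without heart 15 or without heart 31, 12 without heart 41 and 14 without heart 8, and at 2 weeks 12 without heart 31 and 16 without heart 15. A fit of only the compared groups called 4 over both times and 0 at 2 weeks.

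**Figure D2:**
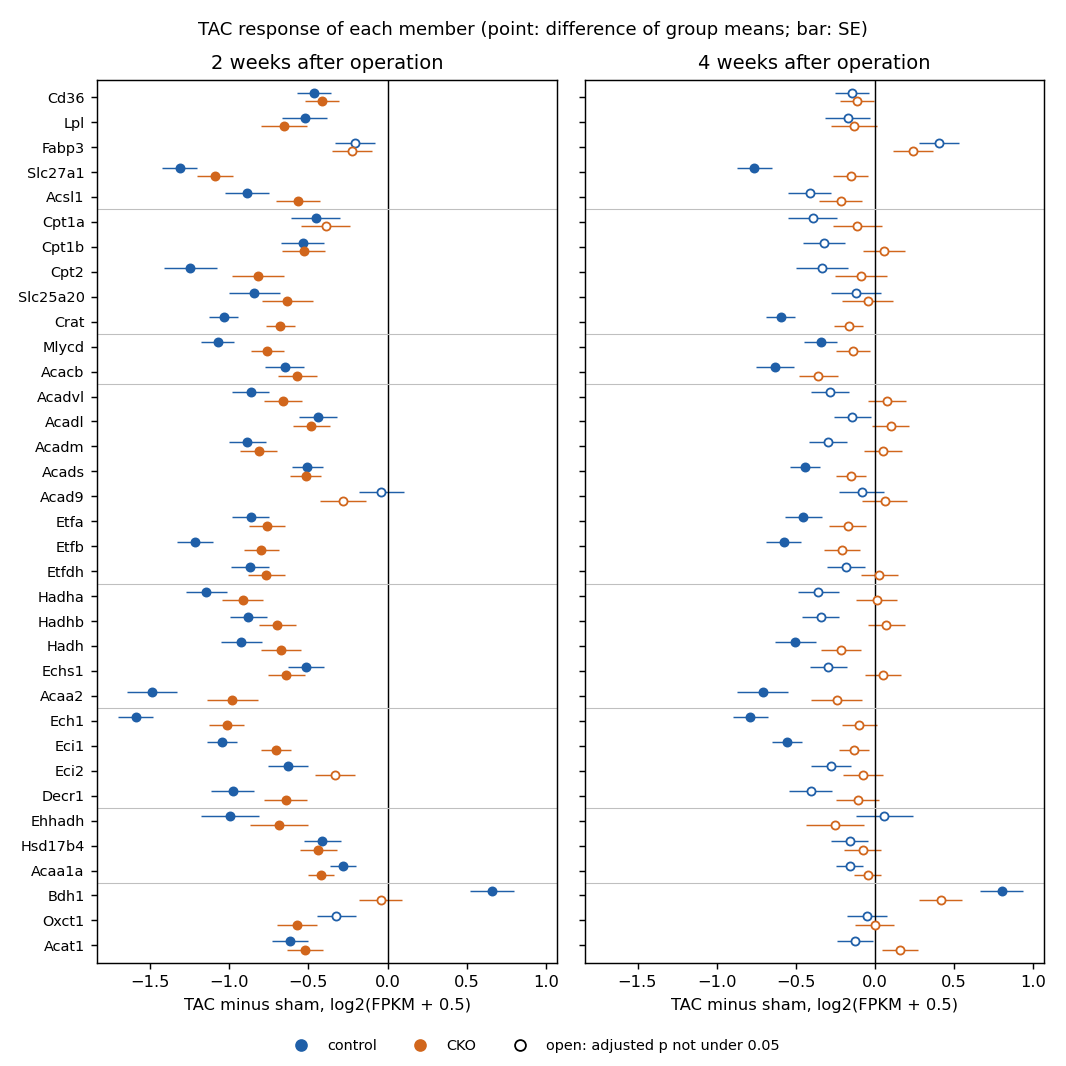
TAC minus sham on the log2(FPKM + 0.5) scale for each of the 35 genes, in order of their roles, at 2 weeks (left) and 4 weeks (right) in control (blue) and CKO hearts (orange). Points are differences of group means of 2 hearts, bars are standard errors of the limma fit, and filled points passed an adjusted p under 0.05; at 4 weeks no CKO point is filled.

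Of the 5 genes of uptake and activation, 4 fell in controls over both times (median -0.35) and 4 in CKO hearts (median -0.39). Slc27a1 in control hearts was at 59.6 and 56.7 FPKM when tamoxifen ended. Slc27a1 then stood, at 2 weeks, at 54.0 and 62.4 FPKM with sham and 22.1 and 24.1 with TAC, and at 4 weeks at 57.6 and 53.0 with sham and 35.8 and 29.3 with TAC. The Slc27a1 values of CKO hearts were 59.5 and 55.2 FPKM when tamoxifen ended, 56.9 and 58.4 with sham and 28.6 and 25.2 with TAC at 2 weeks, and 47.9 and 47.2 with sham and 39.6 and 45.9 with TAC at 4 weeks. Slc27a1 (chr8:71568882-71587302, plus strand), a fatty acid transport protein that also activates the acids it carries, was lower in every TAC heart than in every sham heart of its genotype. The fall in controls was -1.04 ± 0.08 over both times (limma adjusted p = 1.1e-06, 2.05-fold lower), and in CKO hearts it was -1.09 ± 0.11 at 2 weeks (adjusted p = 8.9e-05) with -0.16 ± 0.11 at 4 weeks (adjusted p = 0.59). Control hearts held Fabp3 at 3033 and 2843 FPKM with sham and 2661 and 2429 with TAC at 2 weeks, 2366 and 2448 with sham and 2866 and 3535 with TAC at 4 weeks, and 3099 and 2936 when tamoxifen ended. In CKO hearts Fabp3 was at 2825 and 2446 FPKM when tamoxifen ended, 2886 and 3018 after sham against 2849 and 2238 after TAC at 2 weeks, and 2808 and 2827 against 3576 and 3097 at 4 weeks. Fabp3 encodes the heart's cytosolic fatty acid carrier, and its TAC hearts lay below sham at 2 weeks and above sham at 4 weeks in both genotypes. Neither change passed: Fabp3 stood at -0.21 ± 0.13 and 0.40 ± 0.13 in controls (limma adjusted p = 0.26 and 0.052) and at -0.23 ± 0.13 and 0.24 ± 0.13 in CKO hearts. Acsl1, the main acyl-CoA synthetase of heart, fell by 0.65 in controls and 0.39 in CKO hearts. Lpl, the lipoprotein lipase, fell by 0.35 and 0.39, and Cd36, the membrane carrier of fatty acids, by 0.31 and 0.26.

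All 5 genes of the carnitine shuttle fell in controls over both times (median -0.48), and 2, Crat and Cpt2, fell in CKO hearts (median -0.34). For Crat the control hearts gave 177 and 159 FPKM when tamoxifen ended, then 159.7 and 184 after sham against 80.9 and 86.4 after TAC at 2 weeks, and 185 and 203 against 128 and 128 at 4 weeks. CKO hearts had 158 and 175 FPKM of Crat with sham and 107 and 101 with TAC at 2 weeks, 167 and 187 with sham and 158 and 156 with TAC at 4 weeks, and 155 and 155 when tamoxifen ended. Crat (chr2:30400471-30415813, minus strand), the carnitine acetyltransferase that buffers acetyl-CoA, was below sham in both TAC hearts at each time in both genotypes. It fell by 0.81 in controls (limma adjusted p = 1.4e-06) and by 0.42 in CKO hearts (adjusted p = 0.0022). Cpt1b in control hearts was at 313 and 244 FPKM when tamoxifen ended. Cpt1b then stood, at 2 weeks, at 242 and 322 FPKM with sham and 181 and 204 with TAC, and at 4 weeks at 347 and 341 with sham and 298 and 254 with TAC. The Cpt1b values of CKO hearts were 249 and 255 FPKM when tamoxifen ended, 297 and 299 with sham and 208 and 205 with TAC at 2 weeks, and 268 and 301 with sham and 304 and 287 with TAC at 4 weeks. Cpt1b, the muscle form of the enzyme that loads acyl groups onto carnitine, was below sham in the TAC hearts at 2 weeks in both genotypes and overlapped sham at 4 weeks in CKO hearts. Control hearts held Cpt1a at 13.6 and 15.6 FPKM with sham and 9.26 and 11.9 with TAC at 2 weeks, 15.3 and 13.0 with sham and 11.7 and 9.65 with TAC at 4 weeks, and 18.4 and 15.0 when tamoxifen ended. CKO hearts had 12.9 and 16.9 FPKM of Cpt1a with sham and 10.5 and 11.8 with TAC at 2 weeks, 14.5 and 14.5 with sham and 13.4 and 13.4 with TAC at 4 weeks, and 16.9 and 16.2 when tamoxifen ended. Cpt1a, the form best known from liver, was the lesser of the pair in every heart, and its TAC hearts were below the sham hearts of the same time in both genotypes. Cpt1b fell by 0.43 and Cpt1a by 0.42 in controls over both times (limma adjusted p = 0.0039 and 0.0095), and in CKO hearts they stood at -0.24 and -0.25 (adjusted p = 0.13 and 0.16). The log2 ratio of Cpt1a to Cpt1b in controls was -4.39 ± 0.24 (SD, n = 4) after sham and -4.38 ± 0.30 after TAC, and in CKO hearts -4.27 ± 0.17 and -4.28 ± 0.17. Exact two-sided permutation tests gave p = 0.97 and 0.91, where the smallest possible is 0.029. Within 2 weeks the ratio in controls was -4.21 ± 0.16 and -4.13 ± 0.13 (n = 2 each), and within 4 weeks -4.56 ± 0.14 and -4.63 ± 0.02; in CKO hearts it was -4.29 ± 0.26 and -4.15 ± 0.13, then -4.24 ± 0.12 and -4.41 ± 0.05. Cpt2, which returns the acyl group to coenzyme A, fell by 1.24 at 2 weeks in controls and by 0.82 in CKO hearts, and the carrier Slc25a20 by 0.84 and 0.63. Gm44502, on the same strand, covers 81.4% of the exon bases of Cpt1b in the GENCODE annotation. It has no values in this series under that symbol, so whether reads of the 2 were split is unknown.

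Both genes that set malonyl-CoA fell in each genotype, although their enzymes act in opposite directions. Mlycd breaks malonyl-CoA down and Acacb makes it at the mitochondrial surface. Mlycd in control hearts was at 86.9 and 84.1 FPKM when tamoxifen ended. Mlycd then stood, at 2 weeks, at 83.2 and 92.1 FPKM with sham and 45.4 and 37.7 with TAC, and at 4 weeks at 84.8 and 90.8 with sham and 65.4 and 73.0 with TAC. In CKO hearts Mlycd was at 83.1 and 75.7 FPKM when tamoxifen ended, 81.4 and 87.9 after sham against 53.6 and 46.2 after TAC at 2 weeks, and 83.0 and 89.2 against 76.7 and 79.5 at 4 weeks. Every Mlycd value after TAC was below every value after sham in its genotype. Mlycd fell by 0.71 in controls over both times and by 0.45 in CKO hearts (limma adjusted p = 1.4e-05 and 0.0033). Acacb fell by 0.64 and 0.46 (adjusted p = 0.0001 and 0.0064), and in controls its fall was -0.65 at 2 weeks and -0.63 at 4 weeks.

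Of the 8 dehydrogenases and electron carriers, 7 fell in controls (median -0.55) and 6 in CKO hearts (median -0.35). For Etfb the control hearts gave 1493 and 1451 FPKM when tamoxifen ended, then 1642 and 1730.2 after sham against 723 and 728 after TAC at 2 weeks, and 1392 and 1599 against 959 and 1042 at 4 weeks. The Etfb values of CKO hearts were 1359 and 1323 FPKM when tamoxifen ended, 1381 and 1677 with sham and 936 and 819.7 with TAC at 2 weeks, and 1344 and 1614 with sham and 1243 and 1304 with TAC at 4 weeks. Etfb, the beta subunit of the flavoprotein that takes electrons from the dehydrogenases, was lower in all TAC hearts than in all sham hearts of each genotype. Its fall was -0.90 ± 0.08 in controls and -0.50 ± 0.08 in CKO hearts over both times (limma adjusted p = 3.4e-06 and 0.0023). Gm45233, on the same strand, covers 53.0% of the exon bases of Etfb in that annotation, and has no values in this series under that symbol. Control hearts held Etfdh at 563 and 636 FPKM with sham and 322 and 334 with TAC at 2 weeks, 506 and 562 with sham and 471 and 468 with TAC at 4 weeks, and 646 and 563 when tamoxifen ended. CKO hearts had 528 and 653 FPKM of Etfdh with sham and 381 and 312 with TAC at 2 weeks, 533 and 534 with sham and 565 and 523 with TAC at 4 weeks, and 520.2 and 476 when tamoxifen ended. Etfdh passes those electrons to ubiquinone, and its TAC hearts were below sham at both times in controls and at 2 weeks in CKO hearts, with overlap at 4 weeks in CKO hearts. Etfdh fell by 0.87 and 0.77 at 2 weeks, and stood at -0.18 and 0.03 at 4 weeks (adjusted p = 0.34 and 0.95). Acadm in control hearts was at 1143 and 1030.1 FPKM when tamoxifen ended. Acadm then stood, at 2 weeks, at 1017 and 1071 FPKM with sham and 549.8 and 581 with TAC, and at 4 weeks at 910.3 and 1049 with sham and 777 and 817 with TAC. The Acadm values of CKO hearts were 958 and 899 FPKM when tamoxifen ended, 911 and 1140.3 with sham and 645 and 521 with TAC at 2 weeks, and 913 and 906 with sham and 988 and 900.5 with TAC at 4 weeks. Acadm, the medium-chain dehydrogenase, was lower in the TAC hearts at 2 weeks in both genotypes and at 4 weeks in controls. It fell by 0.88 in controls and 0.81 in CKO hearts at 2 weeks. Acadvl, for very long chains, fell by 0.86 and 0.66, Acadl, for long chains, by 0.44 and 0.48, and Acads, for short chains, by 0.51 and 0.52. Dvl2, on the other strand, shares 42.9% of the exon bases of Acadvl, and the means over all hearts were 1.82 FPKM for Dvl2 and 830 FPKM for Acadvl. For Acad9 the control hearts gave 18.4 and 18.5 FPKM when tamoxifen ended, then 16.1 and 16.9 after sham against 15.7 and 16.4 after TAC at 2 weeks, and 15.8 and 19.1 against 18.1 and 14.8 at 4 weeks. In CKO hearts Acad9 was at 17.1 and 16.5 FPKM when tamoxifen ended, 14.8 and 20.6 after sham against 14.9 and 13.7 after TAC at 2 weeks, and 16.9 and 15.9 against 18.4 and 16.0 at 4 weeks. Acad9, a dehydrogenase known chiefly as an assembly factor of respiratory complex I, had TAC and sham hearts that overlapped at both times. It did not pass in any of the 16 comparisons, and stood at -0.06 ± 0.10 in controls over both times. Etfa, the partner subunit of Etfb, fell by 0.66 and 0.47.

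All 5 genes of hydration, oxidation and thiolysis fell over both times in controls (median -0.71) and in CKO hearts (median -0.44). Acaa2 in control hearts was at 1298 and 1181 FPKM when tamoxifen ended. Acaa2 then stood, at 2 weeks, at 1212 and 1302 FPKM with sham and 436 and 460.2 with TAC, and at 4 weeks at 991 and 1159.6 with sham and 599.8 and 716 with TAC. The Acaa2 values of CKO hearts were 1056 and 955 FPKM when tamoxifen ended, 960.2 and 1281 with sham and 667 and 473 with TAC at 2 weeks, and 1001 and 1122 with sham and 885 and 907 with TAC at 4 weeks. Acaa2, the thiolase that splits off acetyl-CoA, was lower in all TAC hearts than in all sham hearts of each genotype, and each CKO TAC heart lay above the control TAC hearts of its time. Its fall was -1.49 ± 0.16 in controls and -0.98 ± 0.16 in CKO hearts at 2 weeks (limma adjusted p = 3.5e-05 and 0.0016), and -0.71 ± 0.16 in controls at 4 weeks (adjusted p = 0.011), with -0.24 ± 0.16 in CKO hearts (adjusted p = 0.55). Control hearts held Hadha at 646 and 729 FPKM with sham and 323 and 297 with TAC at 2 weeks, 551 and 595 with sham and 432 and 461 with TAC at 4 weeks, and 774 and 655 when tamoxifen ended. In CKO hearts Hadha was at 607 and 563 FPKM when tamoxifen ended, 566 and 712 after sham against 379 and 299 after TAC at 2 weeks, and 548 and 571 against 559 and 568 at 4 weeks. For Hadha (chr5:30118304-30155162, minus strand) the TAC hearts were below sham except in CKO hearts at 4 weeks, which lay within the range of the CKO sham hearts. Hadhb in control hearts was at 244 and 219.8 FPKM when tamoxifen ended. Hadhb then stood, at 2 weeks, at 224 and 224 FPKM with sham and 125 and 118 with TAC, and at 4 weeks at 174 and 208 with sham and 144 and 155 with TAC. CKO hearts had 190.2 and 213 FPKM of Hadhb with sham and 141 and 109 with TAC at 2 weeks, 184 and 181 with sham and 198 and 186 with TAC at 4 weeks, and 197 and 187 when tamoxifen ended. Hadhb (chr5:30155248-30184593, plus strand), which shares the printed promoter with Hadha, was below sham in the TAC hearts at 2 weeks in each genotype and at 4 weeks in controls, and in CKO hearts at 4 weeks above the sham hearts of that time. Hadha fell by 1.14 and Hadhb by 0.88 in controls at 2 weeks, and by 0.92 and 0.70 in CKO hearts. Hadha was 629.8 FPKM on average in control sham hearts and Hadhb 207 FPKM. Echs1, the short-chain hydratase, fell by 0.41 and 0.29 over both times, and Hadh, the short-chain hydroxyacyl dehydrogenase, by 0.71 and 0.44.

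The 4 isomerase and reductase genes fell in controls (median -0.75), and 3 fell in CKO hearts (median -0.40). For Ech1 the control hearts gave 2756 and 2519 FPKM when tamoxifen ended, then 2605 and 2896 after sham against 923 and 901 after TAC at 2 weeks, and 2297 and 2829 against 1432 and 1519 at 4 weeks. In CKO hearts Ech1 was at 2347 and 2159 FPKM when tamoxifen ended, 2283 and 2739 after sham against 1290.0 and 1186 after TAC at 2 weeks, and 2221 and 2193 against 2089.6 and 2027 at 4 weeks. Ech1 (chr7:28825217-28832247, plus strand) moves double bonds of unsaturated chains in mitochondria and peroxisomes. All its TAC values were below all sham values in each genotype, and the CKO TAC hearts lay above the control TAC hearts of the same time at both times. In controls it fell by 1.59 at 2 weeks (3.01-fold lower) and by 0.79 at 4 weeks (1.73-fold lower), with limma adjusted p = 1.3e-06 and 0.00064. In CKO hearts it fell by 1.02 at 2 weeks (adjusted p = 0.00015) and stood at -0.10 ± 0.11 at 4 weeks (adjusted p = 0.74). Eci1, another mitochondrial isomerase, fell by 0.80 and 0.42 over both times, and the dienoyl-CoA reductase Decr1 by 0.69 and 0.38. Eci2 fell by 0.45 in controls and stood at -0.20 ± 0.09 in CKO hearts (adjusted p = 0.16).

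The 3 peroxisomal genes, whose enzymes shorten chains that mitochondria take less well, fell in controls over both times (median -0.29), and 2 fell in CKO hearts (median -0.26). Control hearts held Acaa1a at 38.2 and 36.4 FPKM with sham and 29.4 and 31.8 with TAC at 2 weeks, 38.6 and 42.8 with sham and 35.5 and 37.2 with TAC at 4 weeks, and 38.2 and 35.8 when tamoxifen ended. The Acaa1a values of CKO hearts were 37.3 and 37.7 FPKM when tamoxifen ended, 38.7 and 37.7 with sham and 29.1 and 27.7 with TAC at 2 weeks, and 39.7 and 45.0 with sham and 41.0 and 40.8 with TAC at 4 weeks. Acaa1a, a peroxisomal thiolase, was below sham in the TAC hearts at each time in controls and at 2 weeks in CKO hearts, and overlapped sham at 4 weeks in CKO hearts. It stood at -0.22 ± 0.06 and -0.23 ± 0.06 over both times (limma adjusted p = 0.012 and 0.027). Acaa1a has a close paralog, Acaa1b, with which reads may have been shared. For Hsd17b4 the control hearts gave 53.1 and 58.0 FPKM when tamoxifen ended, then 57.4 and 60.8 after sham against 44.6 and 43.9 after TAC at 2 weeks, and 59.0 and 61.5 against 49.9 and 58.2 at 4 weeks. CKO hearts had 55.6 and 65.4 FPKM of Hsd17b4 with sham and 48.7 and 40.5 with TAC at 2 weeks, 61.2 and 69.8 with sham and 65.7 and 58.2 with TAC at 4 weeks, and 49.3 and 54.0 when tamoxifen ended. Hsd17b4, a hydratase and dehydrogenase in 1 protein, was below sham in the TAC hearts at each time in controls and at 2 weeks in CKO hearts, with overlap at 4 weeks in CKO hearts. It fell by 0.41 and 0.44 at 2 weeks. Ehhadh, the other such enzyme, fell by 0.99 and 0.69 at 2 weeks and stood at 0.06 and -0.25 at 4 weeks.

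The ketone genes did not move as 1 group in control hearts: Bdh1 rose, Acat1 fell and Oxct1 did not pass. Bdh1 in control hearts was at 76.6 and 74.9 FPKM when tamoxifen ended. Bdh1 then stood, at 2 weeks, at 94.6 and 71.7 FPKM with sham and 138 and 123 with TAC, and at 4 weeks at 102 and 109.8 with sham and 187 and 183 with TAC. The Bdh1 values of CKO hearts were 61.5 and 66.1 FPKM when tamoxifen ended, 95.5 and 89.7 with sham and 101 and 79.6 with TAC at 2 weeks, and 115 and 94.0 with sham and 139 and 139 with TAC at 4 weeks. Bdh1 (chr16:31422280-31458901, plus strand), which oxidises beta-hydroxybutyrate, was higher in every control TAC heart than in every control sham heart. In CKO hearts it overlapped sham at 2 weeks and lay above it at 4 weeks. In controls it rose by 0.73 ± 0.10 over both times (limma adjusted p = 8.5e-05, 1.66-fold), and it stood at 0.19 ± 0.10 in CKO hearts (adjusted p = 0.24). The call at 2 weeks in controls (0.66 ± 0.14, adjusted p = 0.0034) was lost without sham heart 16, without the hearts of high Myl7 and in a fit of only the compared groups, with adjusted p up to 0.22. For Oxct1 the control hearts gave 757 and 688 FPKM when tamoxifen ended, then 756 and 693 after sham against 556 and 601 after TAC at 2 weeks, and 677 and 853 against 770.2 and 698 at 4 weeks. In CKO hearts Oxct1 was at 675 and 666 FPKM when tamoxifen ended, 711 and 796 after sham against 572 and 447 after TAC at 2 weeks, and 708 and 697 against 720.4 and 683 at 4 weeks. Oxct1 encodes the enzyme that activates acetoacetate for use, and its TAC hearts were below sham at 2 weeks and overlapped sham at 4 weeks in both genotypes. It stood at -0.19 ± 0.09 in controls over both times (adjusted p = 0.12) and -0.29 ± 0.09 in CKO hearts (adjusted p = 0.057), and fell by 0.57 in CKO hearts at 2 weeks (adjusted p = 0.0071). Acat1, the thiolase that yields acetyl-CoA, fell by 0.62 and 0.52 at 2 weeks.

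**Figure D3:**
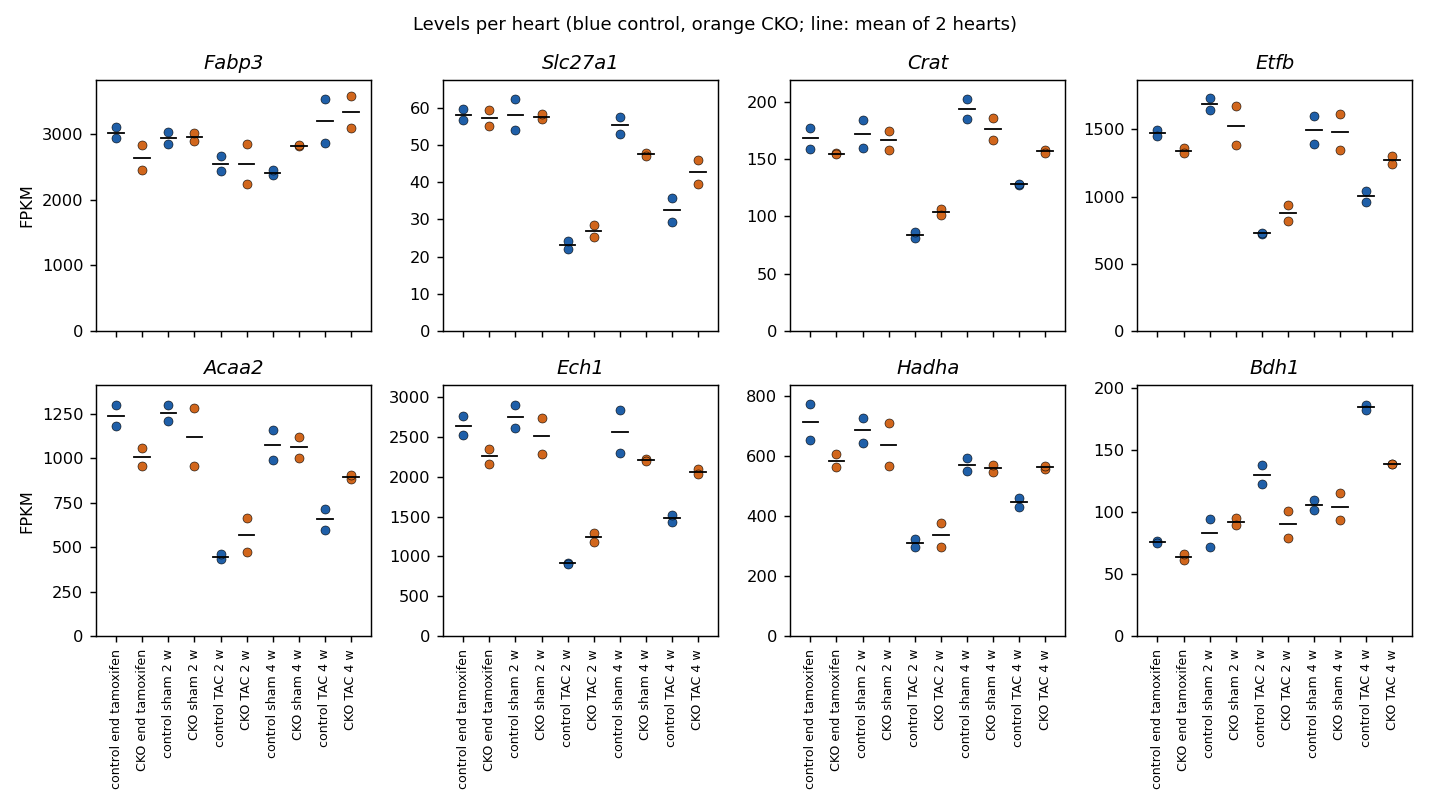
FPKM of 8 of the genes in every heart, for the 10 groups in order of time; points are hearts (blue control, orange CKO) and lines are means of 2. Ech1, Acaa2, Etfb, Slc27a1, Crat and Hadha were lower after TAC at 2 weeks in both genotypes, while Bdh1 was higher in control TAC hearts. For Fabp3 the TAC hearts were below sham at 2 weeks and above it at 4 weeks in both genotypes.

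The response to TAC was compared between genotypes by the difference of the 2 differences. Over both times 1 of 35 genes was called, Ech1, higher in CKO hearts by 0.63 ± 0.11 (limma adjusted p = 0.013), where 0.334% of all genes were called higher and 1.25% in either direction. That is, Ech1 stood at -1.19 in controls and -0.56 in CKO hearts. Its call was lost without the hearts of high Myl7 (adjusted p = 0.17) and held in the other alternatives, with adjusted p from 0.0031. At an unadjusted p under 0.05 there were 12 of 35, against 13.3% of all genes. The median difference was 0.19 over the 35 genes and 0.01 over all genes tested. Crat (0.39 ± 0.09, adjusted p = 0.056), Eci1 (0.38 ± 0.09, adjusted p = 0.069) and Slc27a1 (0.42 ± 0.11, adjusted p = 0.095) came next among the genes with a smaller fall in CKO hearts, and Bdh1, with a smaller rise, stood at -0.54 ± 0.14 (adjusted p = 0.074). At 2 weeks limma called 0 of 35 (background 0.0159%, 6 at an unadjusted p under 0.05 against 7.92% of all genes), with a median of 0.10. At 4 weeks it called 0 (background 0.747%, 6 unadjusted against 12.3%), with a median of 0.28. By role the medians at 4 weeks ran from 0.04 for uptake and 0.05 for ketone use to 0.37 for hydration, oxidation and thiolysis and 0.36 for isomerases. Leaving out control sham heart 12 raised the count over both times to 3, and leaving out heart 8, 13 or 31 to 2. Quantile normalization called 4 over both times and 1 at 4 weeks.

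TAC hearts of the 2 genotypes were also compared directly at each time. At 4 weeks 0 of 35 passed limma (background 0.23% higher and 0.604% lower, 0.834% in all), with 12 at an unadjusted p under 0.05, against 11.6% of all genes. The median difference at 4 weeks was 0.24, against 0.00 over all genes tested, and the smallest adjusted p was that of Ech1 (0.48 ± 0.11, adjusted p = 0.063). Both CKO hearts lay above both control hearts for 27 of 35 genes, against 21.5% of all genes, and below for 1, Bdh1, against 20.8%. At 2 weeks 0 of 35 passed (background 0.0953% higher and 0.318% lower, 0.413% in all, 8 unadjusted against 12.8%), with a median of 0.08, 9 genes above (background 22.3%) and 3 below (Acad9, Acaa1a and Bdh1, background 18.3%). The 9 were Slc27a1, Cpt1b, Crat, Mlycd, Etfb, Acaa2, Ech1, Eci1 and Eci2. Quantile normalization called 1 gene at each time. These comparisons share their TAC hearts with the differences of responses above, so they are not separate evidence.

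The change of the TAC response from 2 to 4 weeks was positive for 34 of 35 genes in controls and 35 in CKO hearts. In CKO hearts 14 of 35 were called higher (background 2.71%) and 0 lower (background 3.83%, 6.54% in either direction), with a median of 0.57 over the 35 genes and 0.01 over all. Slc27a1 (0.93 ± 0.16), Hadha (0.93 ± 0.18), Ech1 (0.91 ± 0.16) and Acadm (0.87 ± 0.17) changed most, with limma adjusted p of 0.0098, 0.015, 0.01 and 0.015. The others were Etfdh, Hadhb, Acadvl, Echs1, Acat1, Mlycd, Etfa, Etfb, Eci1 and Crat, from 0.79 to 0.51. By role, 5 of the 8 dehydrogenases and electron carriers, 3 of 5 genes of hydration, oxidation and thiolysis and 2 of 4 isomerase and reductase genes passed, and 0 of 3 peroxisomal genes. The count was 0 without heart 31, 2 without heart 15, 3 without heart 8, 4 without heart 3, 7 without heart 4 and 9 without heart 41. It was 5 without the hearts of high Myl7, 5 after quantile normalization and 0 in a fit of only the compared groups. In controls 0 of 35 passed (background 0.00794%), with 21 at an unadjusted p under 0.05 (against 13.6% of all genes), a median of 0.47 and Ech1 at 0.80 ± 0.16 (adjusted p = 0.11). Without sham heart 7, 1 passed. The difference of this change between genotypes was called by limma for 0 of 35 (background 0%, 0 unadjusted against 6.5%), with a median difference of 0.14 and standard errors of 0.17 to 0.36.

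**Figure D4:**
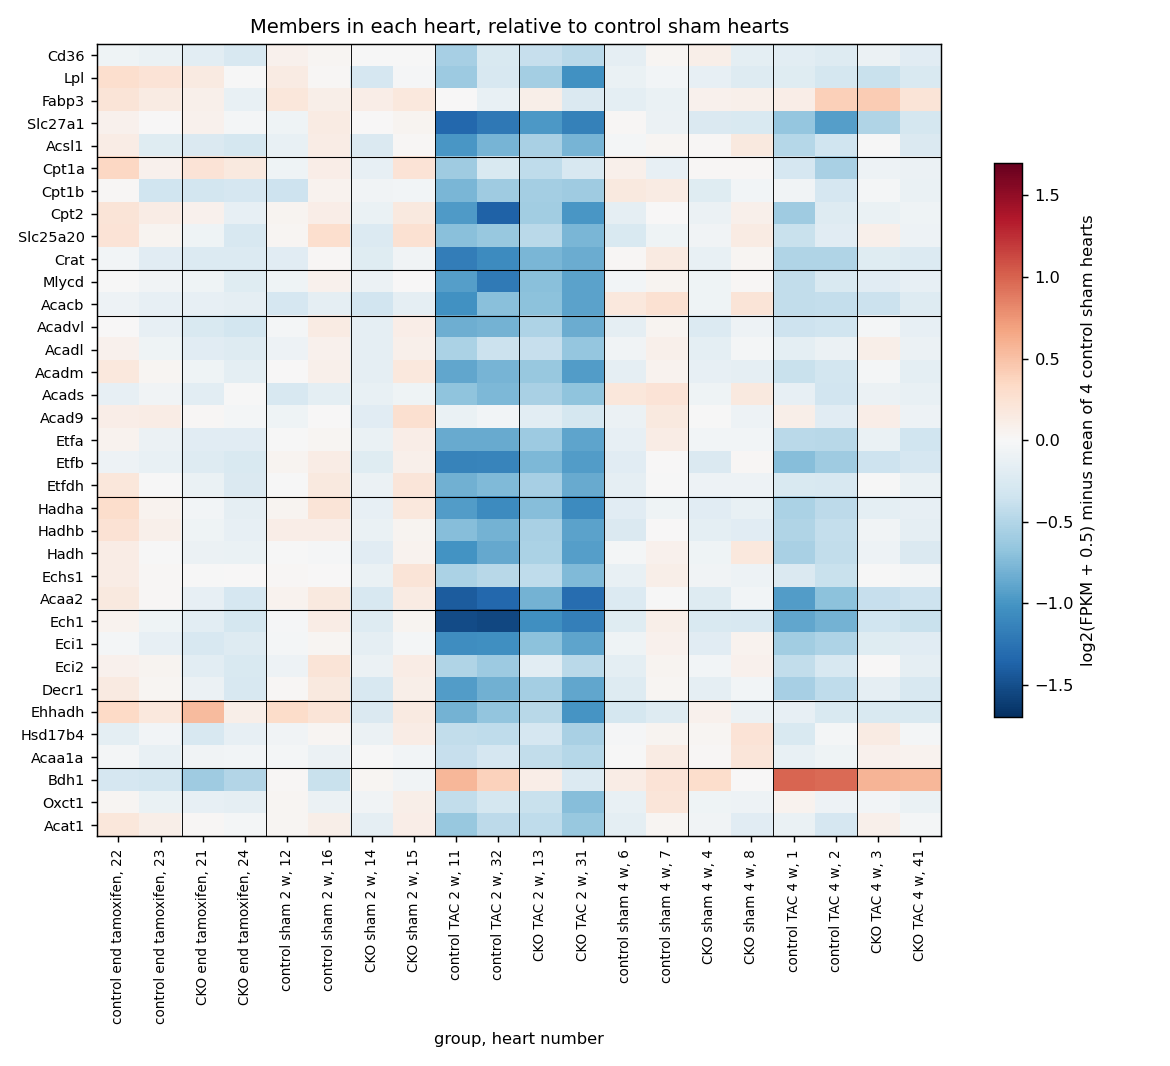
Each of the 35 genes (rows, by role) in each heart (columns, by group), as log2(FPKM + 0.5) minus the mean of the 4 control sham hearts; blue is lower and red is higher. The 4 TAC hearts at 2 weeks are blue in most rows, the CKO TAC hearts at 4 weeks are near the sham hearts, and Bdh1 is red in control TAC hearts, most at 4 weeks.

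Without TAC, 0 of 35 genes passed between the genotypes. At the end of tamoxifen limma called 0 of 35 (background 0.0159%, 4 at an unadjusted p under 0.05 against 3.42% of all genes). The difference of CKO from control was negative for 32 of 35, with a median of -0.17 against 0.00 over all genes tested, and both CKO hearts lay below both control hearts for 28 genes, against 19% of all genes. Both of these CKO hearts, 21 and 24, had Myl7 of 10 FPKM or more and neither control heart did, so genotype and the signal of atrial muscle cannot be told apart at this stage. The lowest values were those of Slc25a20 (-0.31 ± 0.16), Acaa2 (-0.30 ± 0.16), Hadha (-0.28 ± 0.13) and Decr1 (-0.28 ± 0.13). In sham hearts, both times together, limma called 0 (background 0.00794%, 1 unadjusted against 4.11%), with a median of -0.03 and a range from -0.17 for Lpl and Ech1 to 0.12 for Fabp3.

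A further 81 genes around the pathway were listed by role, and 76 passed the filter. In controls over both times 33 fell and 3 rose (background 16.1% and 15.3%, as above). Among the largest falls were those of Acot1, an acyl-CoA thioesterase (-2.57 ± 0.27, limma adjusted p = 1.5e-05), Klf15, a regulator of muscle metabolism (-1.30 ± 0.16), the monocarboxylate carrier Slc16a7 (-1.12 ± 0.17) and the receptor gene Rxrg (-0.88 ± 0.11). The rises were those of Hif1a, which encodes the hypoxia factor (0.54 ± 0.08), Acot9 (0.50 ± 0.12) and Fabp5, a carrier of fatty acids best known outside muscle (0.47 ± 0.11). In CKO hearts 16 fell and 2 rose over both times (background 4.89% and 4.23%), the falls including Acot1 (-1.22 ± 0.27), Plin4, a lipid droplet coat protein (-0.70 ± 0.11), Klf15 (-0.62 ± 0.16) and Ppara (-0.60 ± 0.12), with Fabp5 (0.62 ± 0.11) and Hif1a (0.34 ± 0.08) higher. At 2 weeks 34 fell and 2 rose in controls (background 12.8% and 11%), and 27 fell and 3 rose in CKO hearts (background 9.21% and 10%). Falls in controls at 2 weeks included Acot1 (-3.12), Acot2 (-1.27), Klf15 (-1.26) and Rxrg (-1.17), with Acsl4 (0.43) and Hif1a (0.61) higher. In CKO hearts at 2 weeks the falls included Acot1 (-1.61), Plin4 (-1.04), Ppara (-0.91) and Ivd (-0.84), and the rises Fabp5 (1.04), Hif1a (0.54) and Fabp4 (0.50). At 4 weeks 11 fell and 3 rose in controls (background 6.37% and 6.36%), among them Acot1 (-2.02), Klf15 (-1.34), Slc16a7 (-1.25) and Plin4 (-0.88) lower and Fabp5 (0.58), Acot9 (0.56) and Hif1a (0.47) higher. At that time limma called 0 in CKO hearts (background 0.262%), with 11 of 76 at an unadjusted p under 0.05, against 12.7% of all genes.

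Among the regulators, Ppara fell by 0.73 in controls and 0.60 in CKO hearts over both times (limma adjusted p = 0.00043 and 0.0091). Ppargc1a, which encodes PGC-1 alpha, fell by 0.49 and 0.42 (adjusted p = 0.0015 and 0.015). Esrra, which encodes ERR alpha, fell by 0.43 in controls (adjusted p = 0.00072) and stood at -0.23 ± 0.07 in CKO hearts (adjusted p = 0.067). Ppargc1b and Esrrg did not pass, at -0.43 ± 0.18 and -0.27 ± 0.11 in controls and -0.31 ± 0.18 and -0.16 ± 0.11 in CKO hearts. For these 5 regulators the difference of the TAC response between genotypes ran from 0.07 to 0.20, and no gene of the 76 was called in it (background 1.25%, 9 at an unadjusted p under 0.05 against 13.3% of all genes). Fabp5 was higher in CKO than in control TAC hearts at 2 weeks by 0.95 ± 0.15 (adjusted p = 0.017). From 2 to 4 weeks the TAC response in CKO hearts rose for genes that included Acot2 (0.97 ± 0.24), Ivd (0.78 ± 0.19), Hsd17b10 (0.58 ± 0.16) and Phyh (0.46 ± 0.13), and fell for Fabp5 (-0.84 ± 0.22) and Pparg (-0.83 ± 0.21).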

How the data were processed

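Messenger RNA of 20 mouse hearts was sequenced from total RNA (miRNeasy, TruSeq Stranded mRNA). Per the submitters' processing notes, the authors aligned reads to mm10 with TopHat2 2.1.1 and Bowtie2 and computed values with Cuffdiff 2.2.1; settings for strand are not given in the sources used here. The deposited tables hold FPKM per gene and no counts. A mean of 0.5 FPKM or more was required, and log2(FPKM + 0.5), which understates changes of low genes, was fitted with limma 3.58.1 (trend) under R 4.3.3: 10 group means, 10 residual degrees of freedom, a median prior of 3.81, and Benjamini-Hochberg adjustment over 12589 genes, adjusted p under 0.05. Log2 differences carry the standard error of that fit. Relative depth was estimated from the steps in which low values came. After scaling by it, 95.2% of 24261 values from 2732 genes lay within 5% of a whole multiple of the lowest value of their gene. That lowest value counts as whole by design, and the share expected by chance was not computed.

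The 35 genes and all lists, comparisons and alternatives were chosen with earlier results of these data known; the counts of TAC hearts of 1 genotype beyond the other, and the same counts at the end of tamoxifen, were added after values were seen. Values in every heart are given by rule: in each role the gene with the smallest p for TAC in controls and that with the highest mean, up to 6 called in a difference of responses or between genotypes, those called higher after TAC or not called in controls over both times, and Cpt1a and Cpt1b. Of the other pathway genes, in each comparison up to 5 called genes with the largest rise and 5 with the largest fall are named, and 5 regulators in any case; some genes that this rule selects are not reported here. Alternatives were quantile normalization, median-ratio scaling, pseudocounts of 0.1 and 1, a filter of 3 FPKM or none, only the compared groups, a prior without trend, no hearts with Myl7 of 10 FPKM or more, and each heart left out. Positions are from GENCODE M21. Figures used Python 3.11.15, numpy 2.4.6 and matplotlib 3.10.9.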

Additional observations from a re-analysis of the deposited data

Results flagged for a closer look

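The results below came from tests of a difference between responses. The fall of Ech1 after TAC differed between genotypes over both times, by 0.63 ± 0.11 (limma adjusted p = 0.013), with -1.19 in controls and -0.56 in CKO hearts. Of all genes, 0.334% were called higher in this difference and 1.25% in either direction. The call of Ech1 did not hold without the hearts of high Myl7. In CKO hearts the TAC response changed between 2 and 4 weeks for 14 genes, and for 0 without CKO TAC heart 31. Over all genes 2.71% were called higher in that change, 3.83% lower and 6.54% in either direction. The 14 included the uptake gene Slc27a1 (0.93), the shuttle gene Crat (0.51) and, of malonyl-CoA control, Mlycd (0.62). Among dehydrogenases and electron carriers they were Acadvl (0.73), Acadm (0.87), Etfa (0.59), Etfb (0.59) and Etfdh (0.79). The later steps gave Hadha (0.93), Hadhb (0.77), Echs1 (0.69), Ech1 (0.91), Eci1 (0.57) and Acat1 (0.68). For each of the 14 the log2 response moved towards 0 or past it, and the same change was not shown to differ from that in controls, where limma called 0 of 35 with 21 at an unadjusted p under 0.05 (13.6% of all genes).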

How the results depend on the processing

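The alternatives gave 9065 values of single genes, of which 2177 were for results called in the main setting. Of these 2177 calls 362 were lost and 0 changed sign. Among the other values 49 calls were gained, and 370 differences called in neither setting changed sign. Pseudocounts of 0.1 and 1 FPKM, no filter, a filter of 3 FPKM, median-ratio scaling and a prior without trend left each count of called genes within 1.5 times its value. With only the compared groups in the fit the count was 3 for TAC in controls at 4 weeks, 4 for TAC in CKO hearts over both times, 0 at 2 weeks and 0 for the change with time in CKO hearts; fewer hearts and fewer degrees of freedom enter that fit. Quantile normalization gave 21 for TAC in controls at 4 weeks, 5 for the change with time in CKO hearts, 4 and 1 for the difference of responses over both times and at 4 weeks, and 1 for CKO against control in TAC hearts at 2 and 1 at 4 weeks, and the cause was not tested. When the 5 hearts of high Myl7 were left out, the counts were 17 for TAC in controls at 2 weeks, 5 for the change with time in CKO hearts and 0 for the difference of responses over both times, with fewer hearts in that fit; the comparison at the end of tamoxifen had no value. With 1 heart left out in turn, where the lone heart of its group is assumed to vary like the others, the counts were 28 to 33 for TAC in controls over both times, 25 to 31 at 2 and 6 to 11 at 4 weeks, 11 to 26 in CKO hearts over both times, 12 to 31 at 2 and 0 to 0 at 4 weeks, 1 to 3 for the difference of responses over both times, 0 to 0 at 2 and 0 to 1 at 4 weeks, 0 to 1 and 0 to 21 for the change with time in controls and CKO hearts, 0 to 0 for its difference and 0 to 0 for each of the 4 comparisons of CKO with control. The difference of the log2 ratio of Cpt1a to Cpt1b ranged from -0.11 to 0.10 in controls and -0.09 to 0.04 in CKO hearts. The median over the 35 genes was set against the SD of a typical one of these genes between hearts of a group. It moved by more than that SD with quantile normalization, to -0.70 for TAC at 2 weeks in controls, -0.46 in CKO hearts, and 0.28 and 0.30 for the change with time in controls and CKO hearts. Without the hearts of high Myl7 it was -0.68 and -0.78 for TAC at 2 weeks in controls and CKO hearts, -0.03 for the difference of responses at 2 weeks and 0.30 for that of the change with time. No paired analysis was possible because heart numbers do not recur between groups. Neither scaling moved the median difference over all genes by over 0.1 on the log2 scale. With 2 hearts a group, differences between responses had standard errors of 0.12 to 0.26 at 4 weeks.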
